A study of Mus musculus with 24 samples.

Results

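The genes described here are 10 components of the DARPP-32 and protein kinase A (PKA) system, chosen by symbol (Ppp1r1b, Ppp1r1a, Arpp19, Arpp21, Pcp4, Prkaca, Prkacb, Prkar1b, Prkar2b and Ptpn5) from the 24340 genes that the 6 deposited expression tables share. All 10 were listed once in each table, and all 10 passed the filter of a mean of at least 1 FPKM. RNA-seq was done on the striatum of 24 male mice on a C57BL/6J background. WT-vehicle (5 libraries) were wild type littermates that received the solvent, and WT-RGFP109 (6 libraries) were wild type littermates that received RGFP109, an inhibitor of HDAC1 and HDAC3. R6/1-vehicle (6 libraries) and R6/1-RGFP109 (7 libraries) were hemizygous R6/1 mice, whose transgene is the first exon of human HTT with an expanded CAG repeat and which so model Huntington’s disease (HD) with a fragment of the human gene. The dose was 30 mg/kg, injected intraperitoneally 5 times a week for 3 weeks from an age of 11 to 14 weeks, and the striatum was taken 18 h after the last injection, at 14 to 17 weeks. Each table compares a pair of groups and gives 1 FPKM value per group (fragments per kilobase of exon, scaled to the mapped fragments of the library, a level per length that can be compared between genes), which the authors' software pooled over the libraries of that group. The spread between mice is therefore not in the values used here, depth is unknown, and no difference below was tested against replicate error. A log2 ratio past 0.5 in size (1.41-fold) counts as lower or higher, and the counts are to be read against the share of all genes past the same limit.

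Dopamine and adenosine receptors of striatal projection neurons act through cyclic AMP, which binds the regulatory subunits of PKA and frees the catalytic subunits. PKA then phosphorylates a set of small proteins abundant in these neurons. DARPP-32, encoded by Ppp1r1b, becomes an inhibitor of protein phosphatase 1 when PKA phosphorylates it, and inhibitor-1, encoded by Ppp1r1a, works in the same way. ARPP-19 and ARPP-21 are further PKA substrates. ARPP-19 inhibits protein phosphatase 2A when another kinase, Greatwall, phosphorylates it at a separate site. Pcp4 encodes a small protein that binds calmodulin, and Ptpn5 encodes STEP, a striatum-enriched tyrosine phosphatase that PKA inhibits and that acts on kinases such as ERK.

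The 6 genes that encode no PKA subunit were all lower in the R6/1 groups than in the wild type groups, while the 4 PKA subunit genes were not. Ppp1r1b had 1149 FPKM in WT-vehicle and 447 FPKM in R6/1-vehicle, and Pcp4, the most abundant of the 10, had 1848 and 689 FPKM. The catalytic subunit gene Prkaca had 92.5 FPKM in WT-vehicle and 94.6 FPKM in R6/1-vehicle. By level among all genes, Ppp1r1b ranked 13 in WT-vehicle and 73 in R6/1-vehicle, and Pcp4 ranked 7 and 36, so that both were still among the more abundant transcripts of the R6/1 striatum. Prkar1b moved the other way in rank, from 168 to 120. The lowest level was that of Prkar2b, with 32.8 FPKM in WT-vehicle, rank 2964.

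**Figure D1:**
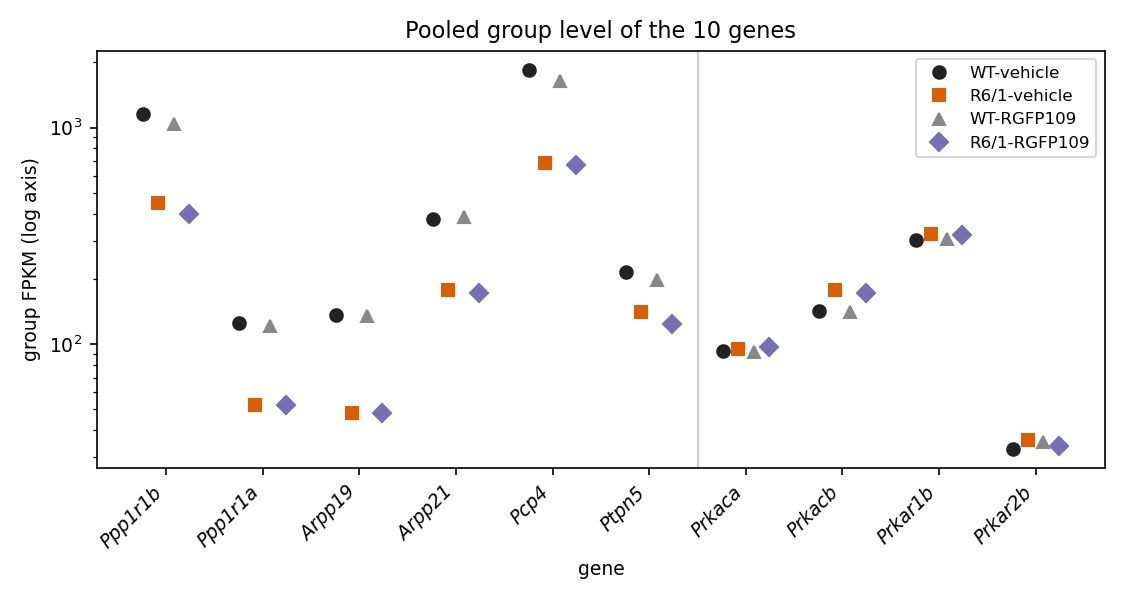
Pooled FPKM of the 10 genes (log axis) in the 4 groups, with 1 symbol per group, all set on the scale of the WT-vehicle and R6/1-vehicle table. For the 6 genes left of the line both R6/1 symbols lie below both wild type symbols, whereas the 4 kinase subunit genes on the right have symbols close together, with Prkacb somewhat higher in the R6/1 groups. No error bars are drawn because each value is a pool.

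The sequence just before the start site is shown for 3 of the lower genes and for both catalytic subunit genes, because these members differ in their genotype ratio and their windows differ in composition. As they were picked for this, the contrast between the printed windows is no result. A relation of composition to the genotype ratio was not tested. The windows are the 250 bases before the RefSeq start site in GRCm38.p6, for start sites at the edge of the gene in the deposited tables, and 7 of the 10 genes have one. No window was read for Ppp1r1b, Ppp1r1a and Arpp21. The windows are chr9:75037364-75037613 (plus strand) for Arpp19, chr16:96467356-96467605 (plus) for Pcp4, chr7:47133685-47133934 (minus) for Ptpn5, chr8:83972728-83972977 (plus) for Prkaca and chr3:146812947-146813196 (minus) for Prkacb. Sequences run 5′ to 3′ on the strand of the gene, and capitals mark TGACG or its reverse complement CGTCA, the half-site of the cyclic AMP response element.
Arpp19: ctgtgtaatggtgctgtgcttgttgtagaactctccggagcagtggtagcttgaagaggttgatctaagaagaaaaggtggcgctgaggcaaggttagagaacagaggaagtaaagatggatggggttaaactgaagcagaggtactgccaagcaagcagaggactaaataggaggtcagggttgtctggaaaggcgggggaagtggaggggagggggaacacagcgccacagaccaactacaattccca
Pcp4: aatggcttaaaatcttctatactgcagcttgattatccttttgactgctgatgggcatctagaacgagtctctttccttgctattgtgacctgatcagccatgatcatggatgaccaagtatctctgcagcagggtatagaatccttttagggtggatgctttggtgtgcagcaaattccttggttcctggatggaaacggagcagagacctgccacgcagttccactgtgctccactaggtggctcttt
Ptpn5: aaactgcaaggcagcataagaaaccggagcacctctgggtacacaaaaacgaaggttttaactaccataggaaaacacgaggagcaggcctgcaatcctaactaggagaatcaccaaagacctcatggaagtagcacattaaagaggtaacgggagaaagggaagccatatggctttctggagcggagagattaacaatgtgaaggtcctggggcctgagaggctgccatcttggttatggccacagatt
Prkaca: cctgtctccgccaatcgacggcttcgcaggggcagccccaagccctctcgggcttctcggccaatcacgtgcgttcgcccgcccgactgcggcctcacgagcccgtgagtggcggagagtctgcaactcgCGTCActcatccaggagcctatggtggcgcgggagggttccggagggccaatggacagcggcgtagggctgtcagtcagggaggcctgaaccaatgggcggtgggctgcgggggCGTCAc
Prkacb: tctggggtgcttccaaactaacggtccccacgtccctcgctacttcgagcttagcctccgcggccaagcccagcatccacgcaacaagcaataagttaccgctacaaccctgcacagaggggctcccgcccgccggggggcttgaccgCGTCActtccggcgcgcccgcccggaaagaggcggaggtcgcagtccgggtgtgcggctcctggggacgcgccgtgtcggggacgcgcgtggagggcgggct
The half-site was found 2 times in the Prkaca window and 1 time in the Prkacb window, and 0 times in those of Arpp19, Pcp4, Ptpn5, Prkar1b and Prkar2b. Of all 32851 windows of this length, 17.8% hold it on either strand. The full element TGACGTCA, which contains the half-site, was in none of the 7 windows and is in 1.55% of all windows. GGGCGG, the GC box, had 2 matches in the Prkaca window, 3 in that of Prkacb and 4 in that of Prkar2b, against 0 in those of Arpp19, Pcp4, Ptpn5 and Prkar1b, and 32.7% of all windows hold it. The G and C content was 51.2% for Arpp19, 46.8% for Pcp4 and 48.0% for Ptpn5, near the median of 52.4% over all windows. It was 68.8% for Prkaca, 69.2% for Prkacb and 75.6% for Prkar2b, with Prkar1b between these at 56.4%. The number of CG steps over that expected from base content was 0.292 for Arpp19, 0.220 for Pcp4 and 0.355 for Ptpn5, and it was lowest for Prkar1b among the 7 windows. For Prkaca, Prkacb and Prkar2b it was 0.848, 1.00 and 0.812, against a median of 0.373. CCAAT had 4 matches in the Prkaca window and 1 in that of Prkar1b (33.8% of all windows), while TATAAA (12.4%) and GCGTGGGCG, the EGR site (0.536%), had none in the 7. Only 1 window per gene was read. That of Prkar1b, chr5:139130387-139130636, lies within the gene as GENCODE M21 draws it, which on this minus strand begins at 139150001.

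To see how the R6/1 genotype related to these genes without the inhibitor, R6/1-vehicle was compared with WT-vehicle. Of the 10 genes, 6 were lower and 0 were higher, where 10.2% of the 13659 genes with a mean of at least 1 FPKM were lower and 3.84% were higher. Among the 3152 genes with a mean of at least 30 FPKM, the range in which all 10 genes lie, 11.3% were lower and 1.87% higher. The median log2 ratio of the 10 genes was -0.85, against -0.0067 over all genes. The ratios ranged from -1.49 to -0.61 for the 6 genes of no PKA subunit and from 0.03 to 0.33 for the 4 PKA subunit genes.

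Ppp1r1b, at chr11:98348738-98358283 in the tables on mm10, was 2.57-fold lower in R6/1-vehicle than in WT-vehicle (log2 ratio -1.36). Among the genes of at least 30 FPKM, 2.22% had a log2 ratio at least this far from 0. Ppp1r1a (chr15:103530279-103537992), the gene of the related phosphatase inhibitor, had 125 FPKM in WT-vehicle and 52.3 FPKM in R6/1-vehicle. It was thus 2.38-fold lower (log2 ratio -1.25), while its level in WT-vehicle was far below that of Ppp1r1b. The ratio of Ppp1r1b to Ppp1r1a in FPKM was 9.22 in WT-vehicle and 8.55 in R6/1-vehicle, so that the pair had a similar proportion in the vehicle groups. It was 8.57 in WT-RGFP109 and 7.57 in R6/1-RGFP109.

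Arpp19, the gene of the phosphatase 2A inhibitor, showed the lowest ratio of the 10. It lies at chr9:75037614-75060313 and had 136 FPKM in WT-vehicle and 48.1 FPKM in R6/1-vehicle, 2.82-fold lower (log2 ratio -1.49). Ensa, the gene of its close relative endosulfine alpha, did not share this difference: the FPKM ratio of Arpp19 to Ensa was 0.512 in WT-vehicle and 0.175 in R6/1-vehicle. The sum of both was 400 FPKM and 323 FPKM. Ensa itself had 265 FPKM in WT-vehicle and 275 FPKM in R6/1-vehicle (log2 ratio 0.05). As the sequences are related, reads that fit both genes could have been split between them by the authors' software, which was not tested. Arpp21 (chr9:112065091-112348925 in the tables) had 380 FPKM in WT-vehicle and 178 FPKM in R6/1-vehicle, 2.14-fold lower (log2 ratio -1.10). The FPKM ratio of Arpp21 to Arpp19 was 2.80 in WT-vehicle and 3.69 in R6/1-vehicle, that is, the relative difference was smaller for Arpp21. Arpp21 is also the host gene of Mir128-2, which was listed at 0 in both groups. Mir128-2 spans only chr9:112118636-112118711 and is listed with the interval of Arpp21, so this 0 cannot be taken as the level of the microRNA.

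Pcp4 (chr16:96467606-96525793) was 2.68-fold lower in R6/1-vehicle (log2 ratio -1.42). Ptpn5 (chr7:47077800-47133684) had 214 FPKM in WT-vehicle and 141 FPKM in R6/1-vehicle, 1.52-fold lower (log2 ratio -0.61). This was the smallest difference of the 6 and the one nearest to the limit of 0.5, and 9.01% of the genes of at least 30 FPKM were at least as far from 0. For Arpp19, Pcp4, Ppp1r1a and Arpp21 this share ranged from 1.78% to 3.08%.

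The PKA subunit genes had log2 ratios near 0 or above it. Prkaca (chr8:83972978-83996442), one of the catalytic subunit genes, had a log2 ratio of 0.03. Prkacb (chr3:146729579-146812946), the other, had 142 FPKM in WT-vehicle and 179 FPKM in R6/1-vehicle, a log2 ratio of 0.33, which is below the limit, and 24.2% of the genes of at least 30 FPKM were at least as far from 0. Prkar1b (chr5:139017304-139130386), the neuronal type I regulatory subunit gene, had 303 and 323 FPKM (log2 ratio 0.09). Prkar2b (chr12:31958479-32061279), the neuronal type II gene, had 32.8 and 36.1 FPKM (log2 ratio 0.14). For Prkaca, Prkar1b and Prkar2b, between 56.4% and 89.1% of the genes of at least 30 FPKM were at least as far from 0.

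The comparison of R6/1-RGFP109 with WT-RGFP109 rests on other mice than the comparison of the vehicle groups and gives a second reading of the genotype difference. The same 6 of 10 genes were lower and 0 were higher, where 8.58% of the 13651 genes were lower and 3.46% higher. At 30 FPKM or more these shares were 8.87% and 1.65%. Of the 13460 genes with a mean of at least 1 FPKM in both tables, 6.26% were lower in both. Ppp1r1b had 1044 FPKM in WT-RGFP109 and 399 FPKM in R6/1-RGFP109, 2.62-fold lower (log2 ratio -1.39). Pcp4 had 1645 and 675 FPKM (log2 ratio -1.29). Arpp19 had 136 and 48.1 FPKM, again the lowest ratio of the 10 (2.83-fold lower). These 3 genes were thus at 0.353 to 0.410 times their wild type level under RGFP109. Ppp1r1a had 122 and 52.7 FPKM (log2 ratio -1.21), Arpp21 388 and 174 FPKM (log2 ratio -1.16), and Ptpn5 200 and 124 FPKM (log2 ratio -0.68). Prkacb was again the highest ratio, with 141 and 173 FPKM (log2 ratio 0.29).

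The sign of the genotype ratio was the same in both comparisons for 9 of the 10 genes, a share that was 82.8% over all genes and 85.6% over those of at least 30 FPKM. The exception was Prkar2b, with a log2 ratio of 0.14 in the vehicle groups and -0.06 in the RGFP109 groups. The genotype ratio with RGFP109 minus that with vehicle lay between -0.20 (Prkar2b) and 0.14 (Pcp4) on the log2 scale. For the middle 90% of the 3073 genes of at least 30 FPKM in both tables, this difference lay between -0.16 and 0.26. For the other 8 genes it lay between -0.08 and 0.05, so that the genotype ratio of each was nearly the same in both sets of mice.

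**Figure D2:**
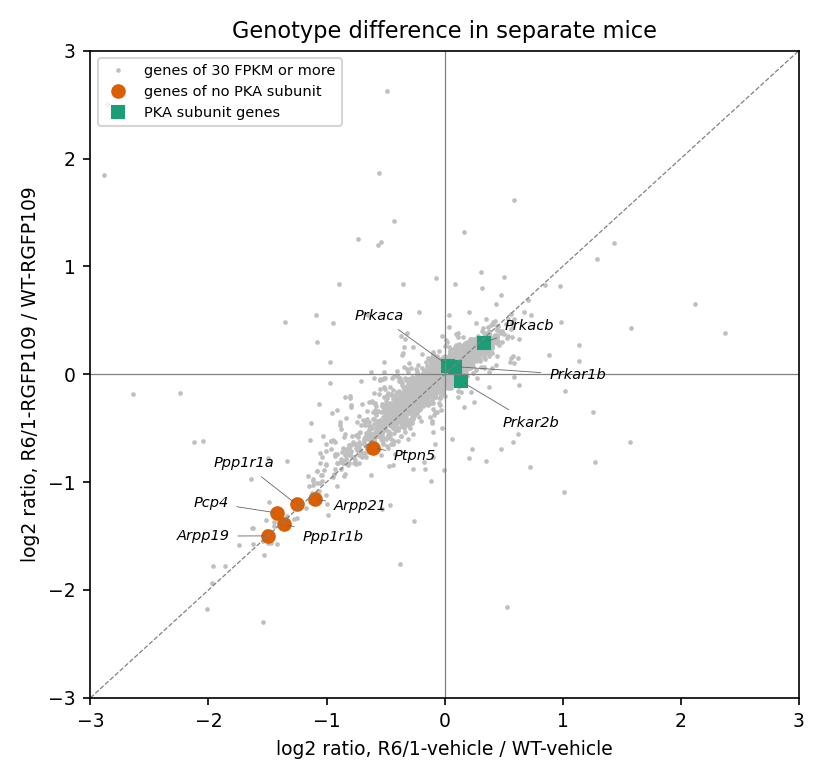
Log2 ratio of R6/1-vehicle to WT-vehicle (x) against that of R6/1-RGFP109 to WT-RGFP109 (y) for the 10 genes, with the 3073 genes of at least 30 FPKM in grey, of which 26 lie outside the axes of -3 to 3. The dashed line marks equal ratios, and the 6 genes of no PKA subunit lie along it at -0.61 or lower on the x axis, while the 4 kinase subunit genes sit near 0.

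Whether RGFP109 shifted these genes was read from R6/1-RGFP109 against R6/1-vehicle and from WT-RGFP109 against WT-vehicle. In R6/1 mice 0 of the 10 genes were lower and 0 were higher, where 1.41% of all genes were lower and 1.55% higher, or 1.28% and 1.53% of those of at least 30 FPKM. In wild type mice the counts were also 0 and 0, where 2.11% were lower and 1.71% higher, or 1.87% and 1.64% of those of at least 30 FPKM. The median log2 ratio of the 10 genes was -0.04 in R6/1 and -0.01 in wild type mice. The largest differences in R6/1 mice were those of Ptpn5, with 146 FPKM in R6/1-vehicle and 128 FPKM in R6/1-RGFP109 in the table of that pair (log2 ratio -0.19), and of Ppp1r1b, with 462 and 410 FPKM (log2 ratio -0.17). Both lay further from wild type with the inhibitor, and 5.94% and 6.63% of the genes of at least 30 FPKM were at least as far from 0. Their ratios in wild type mice were also below 0, with -0.11 for Ptpn5 and -0.14 for Ppp1r1b. A shift of this size in R6/1 mice was not particular to Ptpn5 and Ppp1r1b. The 12 markers of striatal projection neurons taken up below had log2 ratios from -0.25 to -0.03 there, with a median of -0.13. In wild type mice these markers ranged from -0.19 to 0.26, with a median of -0.07. Of the 10 genes, Pcp4 had the lowest ratio in wild type mice, with 1785 FPKM in WT-vehicle and 1583 FPKM in WT-RGFP109 (log2 ratio -0.17), against -0.04 in R6/1 mice. Prkar2b had ratios of opposite sign, -0.10 in R6/1 and 0.11 in wild type mice. Arpp19 showed almost no difference, with log2 ratios of -0.0070 in R6/1 and -0.00034 in wild type mice.

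**Figure D3:**
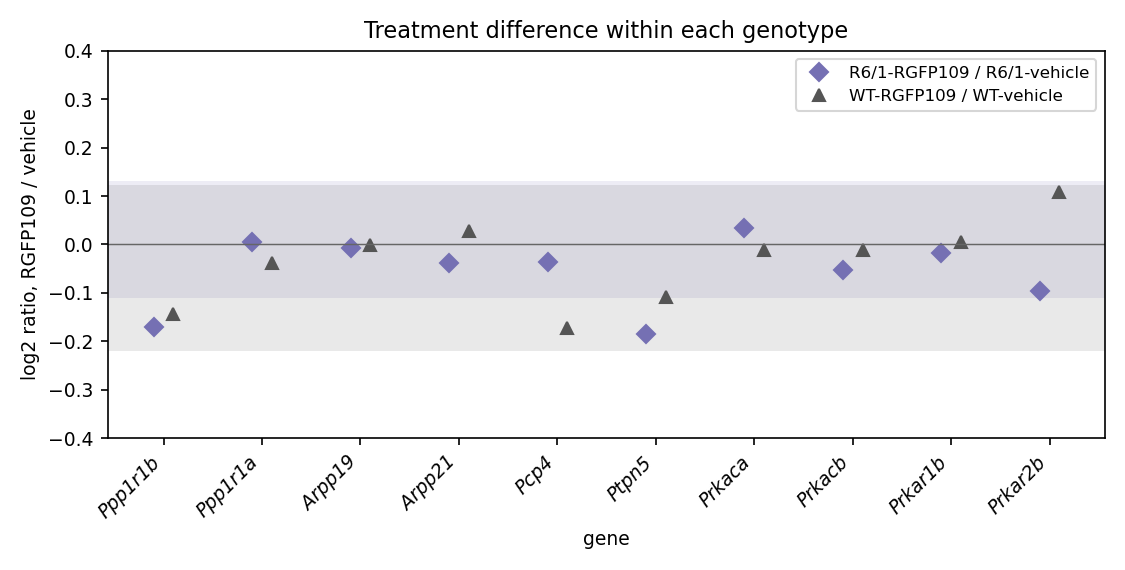
Log2 ratio of RGFP109 to vehicle for the 10 genes within R6/1 mice (diamonds) and within wild type mice (triangles). The bands hold the middle 90% of the genes of at least 30 FPKM, from -0.11 to 0.13 in R6/1 and from -0.22 to 0.12 in wild type mice, and in R6/1 mice Ppp1r1b and Ptpn5 lie below their band.

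Relative to WT-vehicle, the R6/1-RGFP109 level was nearer than the R6/1-vehicle level for 4 of the 10 genes, where this held for 51.5% of all genes. Both ratios use the same WT-vehicle libraries. The 4 genes were Ppp1r1a, Prkacb, Prkar1b and Prkar2b, and only Ppp1r1a of these was among the lower genes. Its log2 ratio to WT-vehicle was -1.252 in R6/1-vehicle and -1.246 in R6/1-RGFP109, almost the same. With ratios centered on the median of all genes, the count was 3 and Ppp1r1a was no longer among them. For Ppp1r1b the ratio was -1.36 in R6/1-vehicle and -1.53 in R6/1-RGFP109, and for Ptpn5 it was -0.61 and -0.79. For Prkacb it was 0.33 and 0.28.

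The subunits of PKA can also be described by their proportions, since FPKM is scaled by length. With Prkar1a and Prkar2a, the remaining regulatory subunit genes, the 4 regulatory genes summed to 550 FPKM in WT-vehicle and 557 in WT-RGFP109, against 621 in R6/1-vehicle and 613 in R6/1-RGFP109. In that order, Prkar1b made up 55.1%, 54.6%, 52.0% and 52.2% of this sum, and Prkar2b 5.95%, 6.34%, 5.81% and 5.51%. The sum of Prkaca and Prkacb was 234, 233, 273 and 270 FPKM, of which Prkacb made up 60.5%, 60.5%, 65.4% and 64.0%. Both R6/1 groups therefore had the larger sums and the larger share of Prkacb. The regulatory sum over the catalytic sum stayed between 2.27 and 2.40 in the 4 groups. The level of Ppp1r1b per summed catalytic FPKM was 4.90 in WT-vehicle and 4.47 in WT-RGFP109, against 1.63 in R6/1-vehicle and 1.47 in R6/1-RGFP109.

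**Figure D4:**
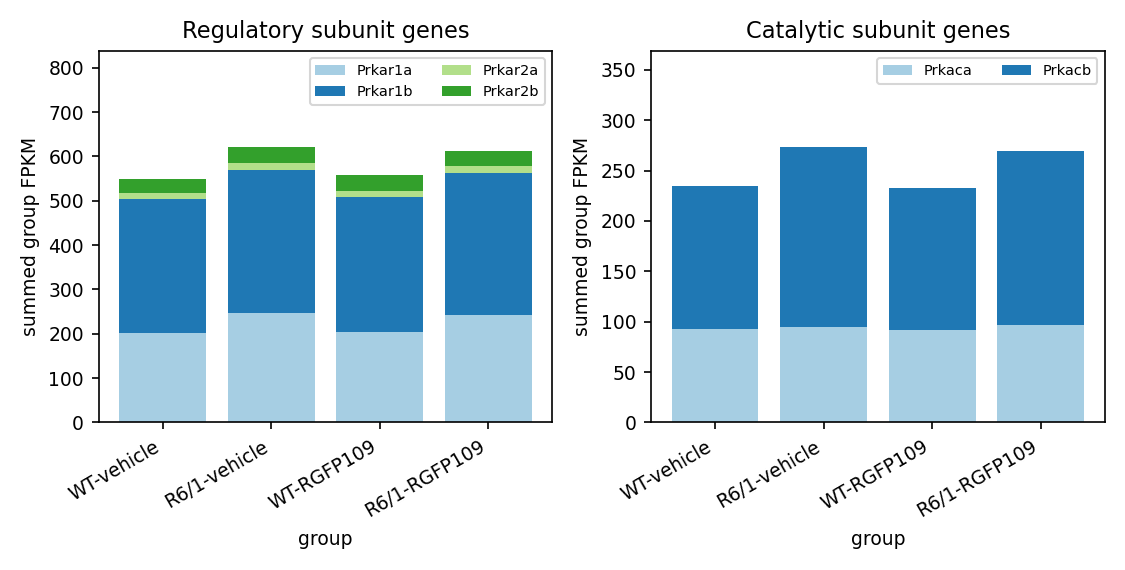
Summed group FPKM of the regulatory (left) and catalytic (right) PKA subunit genes in the 4 groups, with 1 color per gene. Both sums are higher in the R6/1 groups, by the Prkar1a and Prkacb segments in the main, and the regulatory sum exceeds the catalytic sum in each group.

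The partners of these genes were read from 9 lists with 73 genes, of which 71 had a mean of at least 1 FPKM in the vehicle table. There 7 of the 71 were lower and 0 higher in R6/1-vehicle, where 10.2% of all genes were lower and 3.84% higher, so that the share of lower partners was near that of all genes. The lists are small, and their counts are a description of the named genes. Among the subunits and regulators of protein phosphatase 1, the target of DARPP-32, 2 of 8 were lower. These were Ppp1r9b, the gene of spinophilin, which anchors the phosphatase in dendritic spines, with 324 and 154 FPKM in WT-vehicle and R6/1-vehicle (log2 ratio -1.08), and the catalytic subunit gene Ppp1ca, with 333 and 209 FPKM (log2 ratio -0.67). Among the genes of calcineurin, which dephosphorylates DARPP-32, and of its regulators, 1 of 6 was lower. This was the catalytic subunit gene Ppp3ca, with 351 and 208 FPKM (log2 ratio -0.75). Among the kinases that act on other sites of DARPP-32, with their subunits and activators, 1 of 8 was lower. This was the Cdk5 activator gene Cdk5r2 (log2 ratio -0.64), while Cdk5 itself had a log2 ratio of -0.25. Of the calmodulin genes and IQ-motif relatives of Pcp4, 2 of 6 were lower, the neurogranin gene Nrgn with 1081 and 556 FPKM (log2 ratio -0.96) and Pcp4l1 (log2 ratio -0.56). Of the STEP substrates and related phosphatases, 1 of 9 was lower, Ptpn7 (log2 ratio -2.69), a phosphatase gene of 2.74 FPKM in WT-vehicle. None of the 6 other PKA subunit and inhibitor genes, 11 A-kinase anchoring protein genes, 11 genes of protein phosphatase 2A and its regulators and 6 genes of the CREB family was past the limit in this comparison. The PKA inhibitor genes differed among themselves, with log2 ratios of -0.45 for Pkig and 0.38 for Pkia. In R6/1-RGFP109 against WT-RGFP109, 7 of 71 were also lower, again near the share of all genes (8.58%), with the anchoring protein gene Akap5 (log2 ratio -0.57) among them and Cdk5r2 (log2 ratio -0.45) not. The treatment comparisons had 0 of 70 genes past the limit in R6/1 mice, where 1.41% of all genes were lower and 1.55% higher, and 0 of 71 in wild type mice, where 2.11% were lower and 1.71% higher.

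**Figure D5:**
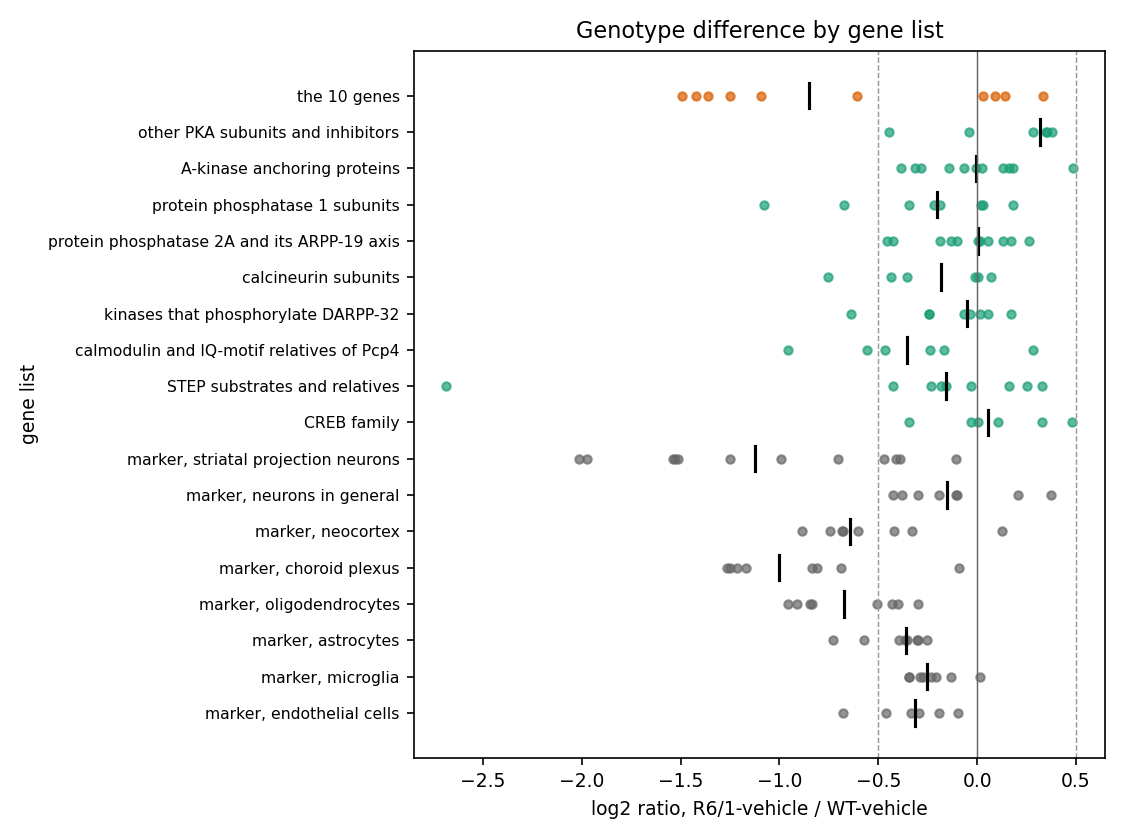
Log2 ratio of R6/1-vehicle to WT-vehicle for each gene (points) of the 10 genes, of the 9 partner lists and of the 8 marker lists, with the median of each list as a bar and dashed lines at -0.5 and 0.5. The median of the 10 genes is -0.85 and that of the striatal projection neuron markers -1.12, while the medians of the partner lists lie between -0.35 and 0.32.

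Of 12 markers of striatal projection neurons, 8 were lower in R6/1-vehicle than in WT-vehicle and 9 in R6/1-RGFP109 than in WT-RGFP109, with median log2 ratios of -1.12 and -1.27, where 10.2% and 8.58% of all genes were lower. All 12 were above 0 FPKM in each group, and their summed level ranged from 849 FPKM in R6/1-RGFP109 to 2354.5 FPKM in WT-vehicle. Penk alone gave 246 and 1114 FPKM of these sums, while Tac1 had a log2 ratio of -0.11 between the vehicle groups. Markers of neurons in general summed to between 2594 and 2970.3 FPKM, and 0 of 8 were past the limit in either genotype comparison. In bulk striatum, fewer projection neurons and less RNA of these genes per neuron cannot be told apart. The sums of other cell types also moved between the groups. In WT-vehicle, R6/1-vehicle, WT-RGFP109 and R6/1-RGFP109, the 8 oligodendrocyte markers summed to 4842, 2719, 3766 and 3060.3 FPKM, and the 8 choroid plexus markers to 1491, 634, 323 and 41.0 FPKM. Most of each choroid plexus sum was Ttr, with 1443, 606, 306 and 30.4 FPKM in the same order. The 8 neocortex markers summed to 419, 249, 403 and 294 FPKM. Between the vehicle groups, 7 of 8 choroid plexus, 5 of 8 oligodendrocyte and 5 of 8 neocortex markers were lower in R6/1 mice, where 10.2% of all genes were. Between the RGFP109 groups these counts were 4 of 6, 0 of 8 and 1 of 8, where 8.58% of all genes were lower. With RGFP109, all 7 choroid plexus markers of at least 1 FPKM were lower in R6/1 mice and all 8 in wild type mice, where 1.41% and 2.11% of all genes were lower. In R6/1 mice 3 of 8 neocortex markers were higher with RGFP109, where 1.55% of all genes were. The 8 astrocyte markers summed to 1144 FPKM in WT-vehicle and 1137 in WT-RGFP109, against 792 in R6/1-vehicle and 788 in R6/1-RGFP109. Of these, 2 of 8 were lower in the vehicle groups and 4 of 8 in the RGFP109 groups, where 10.2% and 8.58% of all genes were. Microglia markers ranged from 298 to 342 FPKM and endothelial markers from 26.8 to 38.3 FPKM, with no marker of any list at 0. The part of these cell types in the ratios of the 10 genes was not tested.

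Across the 4 log2 ratios (genotype with vehicle, genotype with RGFP109, treatment in R6/1 and treatment in wild type mice), the genes nearest to Ppp1r1b by Euclidean distance among 10021 genes of at least 5 FPKM were Rgs4 (0.088), Rasd2 (0.13), Inf2 (0.13), the dopamine receptor gene Drd2 (0.15) and Lmo2 (0.15). Rgs4 had a log2 ratio of -1.38 in the vehicle groups and -1.36 in the RGFP109 groups. Of the other 9 genes described here, Pcp4 was nearest to Ppp1r1b at rank 9 (0.18), followed by Arpp19 at rank 21 (0.28), Ppp1r1a at rank 26 (0.29) and Arpp21 at rank 46 (0.41). Ptpn5 was at rank 330 (1.04), and the 4 kinase subunit genes were at rank 5562 or beyond. The 4 ratios share the same groups, and the genotype ratios of Ppp1r1b are much larger than its treatment ratios. These ranks therefore mostly restate the genotype differences given above.

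Some of these genes overlap others. In GENCODE M21 on GRCm38, Ppp1r1b lies on the plus strand and shares 460 exon bases with the noncoding gene 1700003D09Rik on the opposite strand, and the tables give both the same interval. Its level was 12.2 FPKM in WT-vehicle and 5.55 FPKM in R6/1-vehicle (log2 ratio -1.13). The strand setting of the counting is not given in the sources used here, and without strand the reads of such a pair cannot be told apart. Arpp21 shares 580 exon bases with the opposite-strand noncoding gene 2900079G21Rik, which had 13.3 FPKM in WT-vehicle, and the long interval of Arpp21 in the tables takes in that gene. Pcp4 shares 243 exon bases with Igsf5 on the same strand, which had 0.356 FPKM in WT-vehicle. The microRNA gene Mir7056 lies within Ptpn5 on the same strand and shares 0 exon bases with it. It was listed at 271 FPKM in WT-vehicle and 43.4 FPKM in R6/1-vehicle. Mir7056 spans only chr7:47083166-47083224 and is listed with the interval of Ptpn5, so these values cannot be taken as levels of the microRNA.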

How the data were processed

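Striatal RNA of 24 mice in 4 groups was sequenced as single-end reads. The authors aligned the reads to the RefSeq transcriptome of mm10 with STAR 2.5.0b and deposited 6 tables from Cuffdiff 2 (Cufflinks 2.2.1), 1 per pair of groups, with 1 FPKM value per group pooled over its libraries. The deposited columns with the authors' own log2 fold change, test statistic, p-value and q-value were not used. The value of a group differed between tables by a common factor (0.962 to 1.04), so ratios were taken within a table as log2 of FPKM plus a pseudocount of 0.1. Levels in 4 groups were set on the scale of the WT-vehicle and R6/1-vehicle table by this factor. As each value is a pool, no test was run, and depth and its precision are unknown. Starts are those of the tables plus 1. The 24340 genes listed in all 6 tables were used, and the background took those with a mean of at least 1 FPKM. The ratio calculation was tested on simulated data. Named genes were the 10 members, at most 3 genes per list with the largest log2 ratio between the vehicle groups, the 5 genes nearest to Ppp1r1b and its neighbors within 50 kb. Ensa, Prkar1a and Prkar2a, and the genes that overlap members, fall outside this rule and were named after their values were seen. The members and lists were chosen with earlier results of these data known. Alternatives were another limit (0.25 or 1), pseudocount (0 or 1), minimum level (none or 10 FPKM), centering on the median of all genes, and ratios through another group. The work was done in Python 3.11.15 (pandas 2.3.3, numpy 2.4.6), and plots in matplotlib 3.10.9.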

Additional observations from a re-analysis of the deposited data

How the results depend on the processing

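No paired analysis was possible because the deposited values are pooled over the libraries of a group and carry no replicate numbers, and for the same reason no library could be left out. With a limit of 0.25 in place of 0.5, 1 of the 10 genes (Prkacb) counted as higher in R6/1 mice in each genotype comparison. With the mean in place of the median, the log2 ratio of the 10 genes was -0.66 in the vehicle groups and -0.68 in the RGFP109 groups. The other 96 summary values obtained under an alternative stayed within 1.5 times the reported count or within 0.1 of the reported log2 ratio, 5 of 10 genes being lower in each genotype comparison with a limit of 1. For single genes, none of 200 alternative log2 ratios moved by 0.1 or more, and the largest shift was 0.017, with a pseudocount of 1 FPKM. These alternatives vary the calculation and not the mice, so they bear on no replicate error. As all 10 genes lie well above the minimum levels and pseudocounts used, those settings could hardly change a value. The same holds for ratios through another group, because the value of a group differed between comparisons by a common factor.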

Other observations

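Ppp1r1b has 6 neighbors in the tables within 50 kb, and their genotype ratios differed widely. Stard3, which begins 0.085 kb after the end of the tabled Ppp1r1b interval, had 25.1 FPKM in WT-vehicle and 23.5 FPKM in R6/1-vehicle (log2 ratio -0.09). Pgap3 had a log2 ratio of -0.27 and Pnmt, the gene of the enzyme that makes adrenaline, one of 0.13 at 1.19 FPKM in WT-vehicle. Tcap, the gene of the muscle protein telethonin, 25.5 kb away, had a low level that was lower still in R6/1 mice, with 2.51 FPKM in WT-vehicle and 0.334 FPKM in R6/1-vehicle (log2 ratio -2.59), and a log2 ratio of -2.45 in the RGFP109 groups. Neurod2, a transcription factor gene on the other side, had 13.6 FPKM in WT-vehicle and 11.1 in WT-RGFP109, against 8.93 in R6/1-vehicle and 12.7 in R6/1-RGFP109. Its log2 ratio was -0.60 in the vehicle groups and 0.19 in the RGFP109 groups, unlike that of Ppp1r1b, and the neocortex markers, of which it is 1, numbered 5 of 8 lower in the vehicle groups and 1 of 8 in the RGFP109 groups, where 10.2% and 8.58% of all genes were lower. The remaining neighbor is the overlapping gene 1700003D09Rik.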
